A study of Capra hircus with 2 samples.

Results

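miR-199a, miR-199b and miR-214 are microRNAs (miRNAs), which pair with messenger RNAs and lower their output, and are best known from fibroblasts and other mesenchymal cells. They were measured in small RNA libraries of CD49f-positive and CD49f-negative cells from the testis of Saanen dairy goats, 5 months old. Entries of both deposited tables were taken as members where the representative miRNA name, without species prefix, copy number and arm, was miR-199a, miR-199b or miR-214. This gave 10 of 2599 CD49f-positive entries and 11 of 2338 CD49f-negative entries, under 6 of 1808 combinations of name and arm. CD49f, or integrin alpha-6, marks spermatogonial stem cells on their surface, and the comparison asks which miRNAs differ between cells with and without it. The cells came from 3 testes of 3 goats, were freed with digestive enzymes and kept overnight in a dish to let Sertoli and myoid cells attach, and those still floating were sorted magnetically. The design text speaks of triplicates, but each group had 1 library here, and whether it pools goats is not stated. Differences could therefore not be set against any spread between samples, and no p-value was computed.

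Each miRNA hairpin can release a mature strand from its 5p arm and one from its 3p arm, and bases 2 to 8 of a strand, its seed, lead its pairing to targets. In mice, miR-214 and one copy of miR-199a are cut from a long transcript that runs antisense within Dnm3, and miR-199b lies antisense within Dnm1. In mice and humans the 3p strands of miR-199a and miR-199b are identical. miR-199a-3p is known to target mTOR and MET, and miR-214-3p to target EZH2.

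The hairpins show why some members can be told apart and others cannot. Below, the arms as listed for CD49f-negative cells are in capitals, read 5′ to 3′ from the minus strand. Coordinates are as deposited (the genome build is not given in the sources used here).
mir-199a at chr16:37266446-37266555: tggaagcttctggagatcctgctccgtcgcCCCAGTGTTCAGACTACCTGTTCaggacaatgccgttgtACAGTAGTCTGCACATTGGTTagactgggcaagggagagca
mir-199b at chr11:97323190-97323286: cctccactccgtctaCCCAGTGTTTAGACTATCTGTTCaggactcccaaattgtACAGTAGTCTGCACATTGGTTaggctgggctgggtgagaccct
mir-214 at chr16:37260655-37260766: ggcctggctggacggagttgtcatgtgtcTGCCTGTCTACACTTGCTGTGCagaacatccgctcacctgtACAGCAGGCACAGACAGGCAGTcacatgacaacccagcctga
mir-199a and mir-214 lay 5679 bases apart on the same strand. In the RefSeq annotation of assembly ARS1.2, used here for names and neighbours only, MIR199A and MIR214 fall within the span of DNM3 and MIR199B within that of DNM1, genes of the dynamin family. The authors' folding free energies were -43 kcal/mol for mir-199a, -35.8 for mir-199b and -67.6 for mir-214, the most stable of these hairpins.

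The mature strands are shown with the seed in capitals, because the seeds group the members and the remaining bases separate them.
miR-199a-5p: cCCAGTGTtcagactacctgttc
miR-199b-5p: cCCAGTGTttagactatctgttc
3p strand of both miR-199 hairpins: aCAGTAGTctgcacattggtt
miR-214-3p, CD49f-positive list: tACAGCAGgcacagacagga
miR-214-3p, CD49f-negative list: aCAGCAGGcacagacaggcagt
miR-214-5p: tGCCTGTCtacacttgctgtgc
These are the sequences the authors listed for each arm. miR-199a-5p and miR-199b-5p shared the seed and differed at 2 of 23 bases, T10C and T17C, with the miR-199b base first and positions counted from 1 at the 5′ end. The 3p strand was listed under the name miR-199c at both hairpins. It began 1 base after the annotated miR-199c strand, tACAGTAGtctgcacattgg, so the seeds of the listed and the annotated strand are offset. The listed sequence was the same in both libraries except for miR-214-3p. There the CD49f-positive list gave a form that starts a base earlier than the CD49f-negative form and carries the substitution C20A against its annotated form, with 76 copies, and the CD49f-negative list gave the annotated strand, with 26 copies. Those copies made up 7.12% of the arm's reads in CD49f-positive and 6.79% in CD49f-negative cells, so neither stands for most miR-214-3p reads.

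The libraries differed in depth. Reads under a miRNA name numbered 8196507 in the library of CD49f-positive cells and 3064462 in that of CD49f-negative cells, so levels are given as reads per 1000000 of these (RPM). Where a level or share has an interval, it is an exact 95% Clopper-Pearson interval that covers counting error of reads only. PCR copies are not independent molecules, so the intervals may be too narrow even for that. A floor of 3 reads corresponds to 0.366 RPM for CD49f-positive and 0.979 for CD49f-negative cells. Among miRNAs known for single cell types, summed levels were 22524 and 113686 RPM for the meiotic and post-meiotic germ cell miRNAs miR-34b, miR-34c and miR-449a in CD49f-positive and CD49f-negative cells. They were 14349 and 7551 for endothelial miR-126, and 320 and 823 for miR-202, known from Sertoli cells. The list taken for smooth muscle, miR-143, miR-145, miR-133a and miR-1, had 225614 and 189578, of which miR-143-3p alone gave 221239 and 184230. Its other arms with at least 100 summed reads were mixed. miR-145-3p was higher in CD49f-positive cells, at 2799 and 1895. miR-143-5p, miR-145-5p, miR-133a-3p and miR-1-3p were lower. Levels in this paragraph rest on the read total, and the direction of small differences depends on it. With TMM, a scaling explained further on, miR-133a-3p was higher in CD49f-positive cells, at a log2 ratio of 0.14. miR-143-5p, miR-145-5p and miR-1-3p stayed lower with TMM. The 3 red blood cell miRNAs had 2963 and 3716, the 4 white blood cell miRNAs 197 and 248, and the 5 epithelial miRNAs 31.6 and 93.3. Only 1 of the 5 epithelial names had 100 summed reads, and miR-200b-3p alone gave 28.7 and 88.4. The white blood cell miRNAs were mixed, with miR-155-5p at 83.8 and 55.5 and miR-142-5p at 72.7 and 125.5. No name on these lists was at 0 in either library. The part of these cells in the values below was not tested, and fewer cells of a type cannot be told apart from less of the RNA per cell.

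The miR-199 family was of medium to high abundance and close to equal in both libraries. The 5p strand named miR-199b-5p was, as deposited, the most abundant member, with 28043.5 CD49f-positive and 11920 CD49f-negative reads. This was 3421 RPM in CD49f-positive cells (95% interval 3382 to 3462) and 3890 in CD49f-negative cells (3820 to 3960), and it ranked 24 among all names in each. The counting intervals did not overlap, but the log2 ratio (CD49f-positive over negative) was small, at -0.19 (-0.22 to -0.15).

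miR-199a-5p, which shares its seed, had 10910.5 and 4790 reads in the CD49f-positive and CD49f-negative libraries. Its level was 1331 RPM in CD49f-positive cells (1306 to 1356) and 1563 in CD49f-negative cells (1519 to 1608), at ranks 46 and 47. Its log2 ratio was -0.23 (-0.28 to -0.18), which overlaps that of miR-199b-5p. The 3p strand named miR-199c, the strand with the mTOR and MET targets, had 21217 and 8580 reads, or 2589 and 2800 RPM, and a log2 ratio of -0.11 (-0.15 to -0.08). Under the names miR-199a-3p and miR-199b-3p stood 0.667 and 4 CD49f-positive reads, and 6 and 5 CD49f-negative reads, none of them at a known hairpin. The abundance of the 3p strand is therefore seen through the name miR-199c. All miR-199 names and arms together held 0.734% of CD49f-positive and 0.826% of CD49f-negative reads.

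miR-214 was far less abundant than the name miR-199a, whose reads need not all come from the hairpin beside mir-214. miR-214-3p had 1067 reads in the CD49f-positive and 383 in the CD49f-negative library, or 130.2 RPM (122 to 138) and 125 (113 to 138). The intervals overlapped, and the log2 ratio of 0.06 (-0.11 to 0.23) includes equal shares. miR-214-5p, the minor strand, had 54 and 53 reads although the CD49f-positive library was 2.67 times deeper. Its level was 6.59 RPM in CD49f-positive cells (4.95 to 8.60) and 17.3 in CD49f-negative cells (13.0 to 22.6), a log2 ratio of -1.39 (-1.97 to -0.82).

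**Figure D1:**
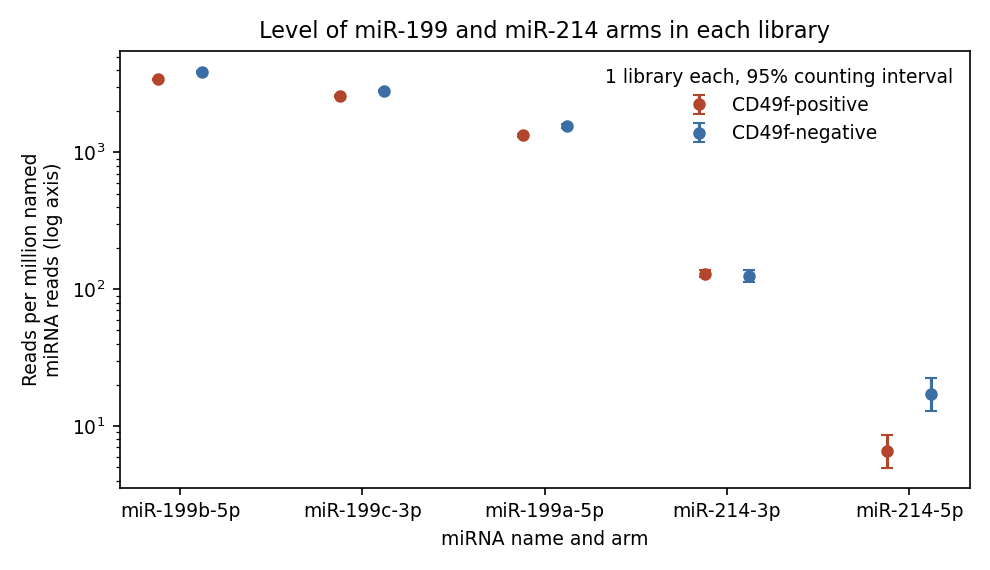
Level of each arm with at least 100 summed reads in RPM (log axis) in the CD49f-positive (red) and CD49f-negative (blue) library, 1 library each, with exact 95% counting intervals. As deposited, miR-199b-5p is highest at 3421 and 3890. miR-214-5p, at 6.59 and 17.3, is the plotted arm whose levels lie farthest apart.

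As deposited, levels fell in both libraries from miR-199b-5p through the miR-199 3p strand, miR-199a-5p and miR-214-3p to miR-214-5p. No neighbours in that order had overlapping counting intervals. The spread between replicates is unknown, so the order cannot be set against it. The places of miR-199a-5p and miR-199b-5p among the miR-199 strands also rest on how reads were split, as described further on. With shared reads returned to miR-199a-5p, miR-199b-5p had at most 19266 CD49f-positive and 8466 CD49f-negative reads. miR-199a-5p then had 19688 to 20857 and 8244 to 9336. The 3p strand, summed over both hairpins, had 21217 and 8580. The 5p names summed in the same way had 38954 and 16710.

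A miRNA was called higher or lower where it had at least 100 reads summed over both libraries, at least a 2-fold ratio, and equal shares outside its interval. Of 298 names with enough reads, 24.8% were called lower and 2.01% higher in CD49f-positive cells. Of 4 member arms with enough reads, 1 was called, miR-214-5p as lower, which is near the background share and no result about the group. With its 107 summed reads miR-214-5p was also just above the minimum. The remaining 3 arms met no call. The median log2 ratio of the 4 arms was -0.21, and that of all 298 names was -0.43. Ranked from the highest ratio, miR-214-3p stood at 65, miR-199b-5p at 106, miR-199a-5p at 119 and miR-214-5p at 255 of 298.

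**Figure D2:**
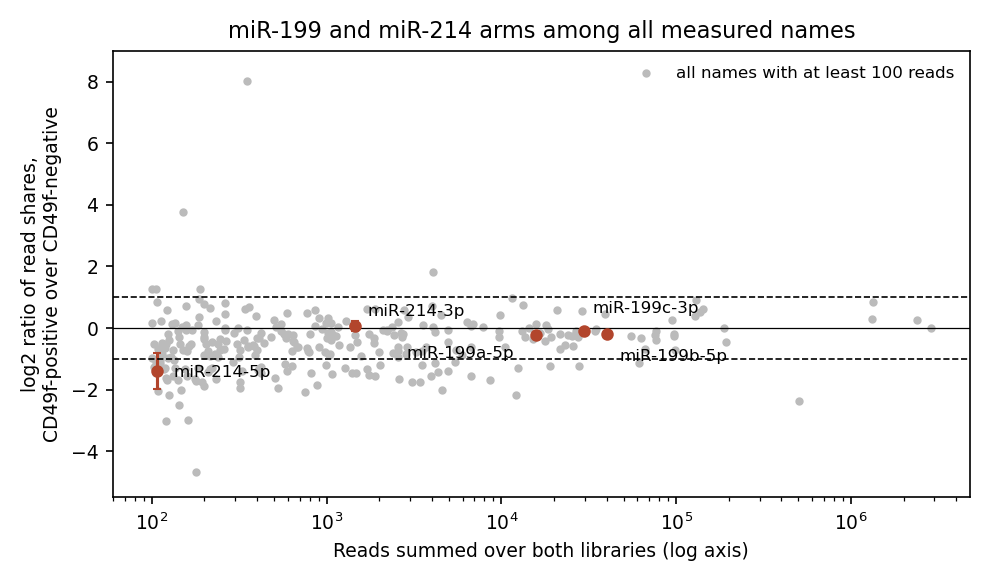
Log2 ratio of read shares, CD49f-positive over CD49f-negative, against reads summed over both libraries (log axis) for 298 names with at least 100 reads (grey) and the miR-199 and miR-214 arms (red, exact 95% counting intervals). Dashed lines mark 2-fold, and miR-214-5p, at -1.39, is the labelled arm beyond them.

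The direction of the near-equal miR-199 arms depended on the scaling, while the ratio of miR-214-3p was above 0 with each scaling tried. With the read total its interval included equal shares. Over reads with no mismatch alone, the ratio of miR-214-3p was instead below 0, at -0.33 (-0.61 to -0.05). TMM scaling, which trims extreme miRNAs before it compares the libraries, raised log2 ratios by 0.45 and gave 0.26 for miR-199b-5p, 0.21 for miR-199a-5p and 0.50 for miR-214-3p, all above 0. It put miR-214-5p at -0.95, under 2-fold, which ends its call. Over all names TMM gave 40 lower and 27 higher calls, so calls higher made up 40.3% of calls with TMM and 7.5% with the read total. Neither miR-199 5p arm nor miR-214-3p was called in either direction under any scaling tried.

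Differences between arms of 1 library do not depend on scaling. The mir-214 hairpin had 4.82% of its reads on the 5p arm in CD49f-positive cells (3.64 to 6.24) and 12.2% in CD49f-negative cells (9.24 to 15.6), intervals that did not overlap. The 3p strand thus had 19.8 reads for each 5p read in CD49f-positive and 7.23 in CD49f-negative cells. This gap was smaller over reads with no mismatch, where the 5p share was 10.2% (7.38 to 13.7) in CD49f-positive cells and 14.5% (9.71 to 20.6) in CD49f-negative cells, with overlapping intervals. Mismatched reads were common in miR-214-3p. Reads with no mismatch made up 32.1% of it in CD49f-positive and 39.9% in CD49f-negative cells, against 67.3% and 64.0% over all names. For miR-214-5p they made up 72.2% and 49.1%, from 39 and 26 reads.

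miR-199 leaned to the 5p arm, and did so almost equally in both libraries. Summed over miR-199a, miR-199b and miR-199c, which leaves no read to be split, 64.7% of reads lay on the 5p arm in CD49f-positive cells (64.4 to 65.1) and 66.0% in CD49f-negative cells (65.5 to 66.6). The intervals did not overlap, though the shares were close. By hairpin as deposited, the 5p share was 50.7% and 52.7% for mir-199a, and 72.6% and 73.6% for mir-199b. Since the 3p reads were shared between both hairpins and 5p reads partly so, these shares of single hairpins depend on the split.

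**Figure D3:**
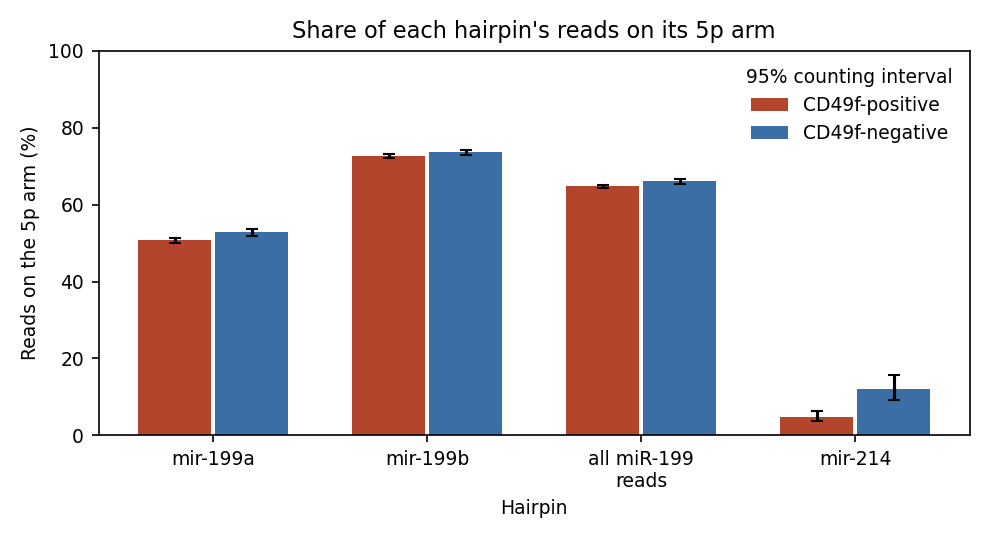
Percent of each hairpin's reads on the 5p arm in the CD49f-positive (red) and CD49f-negative (blue) library, with exact 95% counting intervals. mir-214 is at 4.82% and 12.2%, while all miR-199 reads together are at 64.7% and 66.0%.

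The deposited counts of miR-199a-5p and miR-199b-5p proved not to be separate. In the CD49f-positive library 9095 copies of the miR-199a-5p sequence were listed with no mismatch, more than the 8830.5 mismatch-free reads credited to that arm. In the CD49f-negative library the values were 3779 copies and 3456.5 reads. Part of the mismatch-free miR-199a-5p reads must therefore have been credited elsewhere. The authors also give an unsplit total for each hairpin, which exceeded the sum of its arms by 19333 reads at both mir-199a and mir-199b in the CD49f-positive library, and by 7713.5 at both in the CD49f-negative library. Over 434 CD49f-positive and 430 CD49f-negative hairpins, such a total equalled the sum of the arms in 247 and 243. It was above that sum at each of the 142 and 138 hairpins with fractional arm reads. The names of miR-199a hairpins of other species are listed at the chromosome 11 locus too, and miR-199b-5p carried 9946.5 CD49f-positive and 4546 CD49f-negative reads with a mismatch. Mismatch-free reads made up 64.5% of miR-199b-5p in CD49f-positive and 61.9% in CD49f-negative cells, lower than the 80.9% and 72.2% of miR-199a-5p.

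Low and high estimates were made of the miR-199b-5p reads that belonged to miR-199a-5p. The low estimate assumed that reads fitting both hairpins were split equally. It was the excess of the hairpin total less the 3p reads, 8777.5 in CD49f-positive and 3454 in CD49f-negative cells. The high estimate, 9946.5 and 4546, took every mismatched miR-199b-5p read at its known hairpin. It is an upper limit, since it leaves that arm without mismatched reads there. Over all names, 67.3% and 64.0% of reads had no mismatch. Returned to miR-199a-5p, these reads gave it 19688 to 20857 reads and miR-199b-5p 19266 to 18097 in CD49f-positive cells. In CD49f-negative cells they gave 8244 to 9336 reads for miR-199a-5p and 8466 to 7374 for miR-199b-5p. The share of miR-199a-5p among reads of both names was 28.0% as deposited and 50.5% to 53.5% after the return in CD49f-positive cells, and 28.7% and 49.3% to 55.9% in CD49f-negative cells.

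With all mismatch-free miR-199a-5p reads taken as halved, mismatch-free reads alone gave 17661 and 18097 for miR-199a-5p and miR-199b-5p in CD49f-positive cells, a share of 49.4%. In CD49f-negative cells they gave 6913 and 7373, a share of 48.4%. The listed sequences, whose copies are not split, gave 40.8% and 41.2%, from 9095 and 13195 copies in CD49f-positive cells and 3779 and 5402 in CD49f-negative cells. As deposited, miR-199a-5p had 0.389 reads for each miR-199b-5p read in CD49f-positive and 0.402 in CD49f-negative cells. After the return the names were near equal in reads. miR-199a-5p was ahead in CD49f-positive cells and, at the high estimate, in CD49f-negative cells. miR-199b-5p was ahead at the low estimate in CD49f-negative cells, and in both libraries over restored mismatch-free reads and over listed sequences, so which name leads was not settled. In each way of counting, the libraries lay close to each other.

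**Figure D4:**
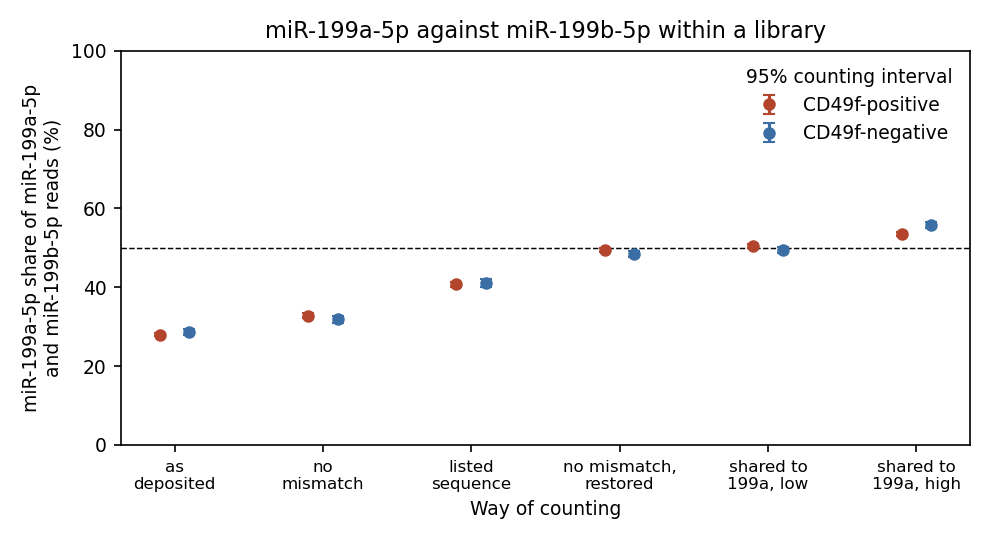
Share of miR-199a-5p among miR-199a-5p and miR-199b-5p reads in the CD49f-positive (red) and CD49f-negative (blue) library under 6 ways of counting, with exact 95% counting intervals. The dashed line marks equal shares, near which the points lie once shared reads are returned to miR-199a-5p.

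miR-214-3p was set against both miR-199 5p strands together, which avoids both the scaling and the split. It had 27.4 reads per 1000 miR-199 5p reads in CD49f-positive and 22.9 in CD49f-negative cells. As a share of the sum of both it was 2.67% (2.51 to 2.83) and 2.24% (2.02 to 2.47), so the intervals stood just apart. Over reads with no mismatch the order turned, at 1.25% (1.13 to 1.39) and 1.39% (1.18 to 1.63), with overlapping intervals. No difference between miR-214-3p and miR-199 was therefore stable to the mismatched reads.

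Other miRNAs known from mesenchymal, smooth muscle and fibroblast cells had log2 ratios from -1.24 to 1.25. The list held 14 names, of which 13 had at least 1 arm with 100 reads, giving 19 arms. Of these 2 were lower and 1 was higher in CD49f-positive cells, and the median log2 ratio was -0.19, with 14 arms below 0. Over all 298 names, 24.8% were lower and 2.01% higher, the median was -0.43 and 223 were below 0. With TMM the list's median was 0.25, none was lower and 2 were higher. Over all names the TMM median was 0.02, with 13.4% lower and 9.06% higher. The lower arms were miR-145-5p (-1.24), a smooth muscle miRNA, and miR-1-3p (-1.10), a muscle miRNA with 162 and 130 reads, of which 0 and 3 had no mismatch. The higher arm was miR-29a-5p (1.25), from 92 and 14 reads, and its 65 and 14 reads with no mismatch fell under the minimum. miR-29a-3p, which represses collagens, was at -0.11.

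The remaining arms of that list were not called with the read total. miR-143-3p, a smooth muscle miRNA, had a log2 ratio of 0.26, and miR-143-5p one of -0.76. miR-145-3p was at 0.56, or 1.01 and called higher with TMM. miR-21-5p, raised in fibrosis, was at -0.45, miR-22-3p at 0.01, miR-22-5p at -0.05, miR-29b-3p at 0.02 and miR-29c-3p at -0.51. miR-125b-5p was at -0.67, miR-125b-3p at -0.07 and miR-100-5p, whose reads are partly shared with miR-99a, at -4.61e-05. miR-140-3p and miR-140-5p, known from cartilage, were at -0.43 and -0.33, miR-133a-3p at -0.31 and miR-152-3p, with no read at a known hairpin, at -0.19. The ratio of miR-214-5p lay below each of these 19 arms, and those of the other member arms lay among them. The interval of miR-214-5p (-1.97 to -0.82) covers the ratios of miR-145-5p and miR-1-3p, however. Over reads with no mismatch miR-214-5p was at -0.92, from 39 and 26 reads, and miR-145-5p was lower, at -1.18.

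The names nearest to miR-199b-5p in log2 ratio, among 136 others with at least 1000 reads, were miR-99b-5p, miR-2478-3p and miR-152-3p, which differed from it by 0.002, 0.005 and 0.008. The likeness is over 2 libraries only, and 27 of the 136 names lay within 0.1 of it.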

How the data were processed

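The deposited column description says that reads were mapped to mammalian hairpins of miRBase and to a goat genome. Aligner, release and build were not given in the sources used here. The authors' reads per arm are expected counts, split between hairpins that a read fits. Copies of a listed sequence and unsplit hairpin totals are deposited whole counts. Hairpin GC content is a deposited percent and was not used. The description calls the listed sequence the read of highest mapped score, so whether it is the most abundant is not known.

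Reads were summed by name and arm. An entry without an arm took the arm with most reads of its name. Unnamed entries (0.555% and 0.611% of reads in the CD49f-positive and CD49f-negative library) were left out. Ratios have 0.5 reads added, and intervals are exact conditional binomial intervals of counts rounded to whole reads. Arm shares by hairpin cover every hairpin entry with a member name. Scaling used edgeR 4.0.16 (TMM) and DESeq2 1.42.0 (median of ratios) on 592 names with at least 10 reads, in R 4.3.3. Python 3.11.15 ran the rest, with SciPy 1.17.1 and matplotlib 3.10.9. The calculation was tested on simulated counts.

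Named were every member arm, miR-199c, the mesenchymal list arms with at least 100 reads, and the 3 names nearest in ratio. Members and lists were chosen with earlier results of these data known. The return of shared reads was added after seeing the data.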

Additional observations from a re-analysis of the deposited data

How the results depend on the processing

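Log2 ratios of miR-199a-5p ranged from -0.26 to 0.37, of miR-199b-5p from -0.23 to 0.41 and of miR-214-3p from -0.33 to 0.66 over the alternatives, without a call. With the median of ratios miR-199a-5p was at 0.37, miR-199b-5p at 0.41, miR-214-3p at 0.66 and miR-214-5p at -0.79, with TMM at 0.21, 0.26, 0.50 and -0.95. A total that leaves out the 10 most abundant miRNAs put them at 0.075, 0.12, 0.36 and -1.09. miR-214-5p kept its direction in 9 of 9 alternatives and its call in 4. Of these alternatives, the minimum of 10 reads and the 4-fold rule cannot change the ratio. Adding 5 reads or keeping known hairpins only left it at -1.39. miR-214-5p lost the call with TMM, median-of-ratios scaling and the 4-fold rule. Over reads with no mismatch (-0.92) and over the listed sequence (-0.29, from 29 and 13 copies) it fell under 100 reads. The interval over the listed sequence, -1.25 to 0.81, includes equal shares. No-mismatch reads gave -0.14 for miR-199a-5p and -0.33 for miR-214-3p. The listed sequence gave -0.15 for miR-199a-5p and -0.13 for miR-199b-5p. The return of shared reads, chosen after seeing the data, gave -0.16 at its low estimate for miR-199a-5p, and -0.23 and -0.12 at its low and high estimate for miR-199b-5p. The cause of these shifts was not tested.

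The 5p share of mir-199a, in CD49f-positive and CD49f-negative cells, was 56.7% and 58.6% over listed sequences, 65.0% and 65.8% or 66.3% and 68.5% at the low or high return, and 64.7% and 66.0% with all names summed. Without mismatches it was 51.5% in CD49f-negative cells. For mir-199b it was 67.5% and 69.3% without mismatches, 65.5% and 66.9% over listed sequences, 64.6% and 66.5% or 63.2% and 63.3% at the low or high return, and 64.7% and 66.0% summed. For mir-214 it was 27.6% and 33.3% over listed sequences, which for miR-214-3p differ between the libraries and so do not compare like with like, and 10.2% in CD49f-positive cells without mismatches.

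The mesenchymal list's median was 0.25 with TMM, 0.41 with median-of-ratios scaling and 0.11 when the 10 most abundant miRNAs were left out. Over all names 40 were lower and 27 higher with TMM, 28 and 34 with median-of-ratios scaling, 158 and 10 with a minimum of 10 reads and 11 and 2 with the 4-fold rule, and 52 and 16 when the 10 most abundant were left out. Depth limits miR-214-5p, with 54 and 53 reads. The names miR-199a-3p and miR-199b-3p were under the minimum, while the 3p strand of both miR-199 hairpins was listed under the name miR-199c. No paired analysis was possible because each group has 1 library.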
